A study of Mus musculus with 9 samples.

Results

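The red blood cell globin transcripts are the messages of the 4 adult globin genes of the mouse, Hba-a1, Hba-a2, Hbb-bs, and Hbb-bt, together with Alas2. They were picked by gene name as a reading of the blood content of each retina, and all 5 were found among the 54532 genes counted. The retinas came from 9 wild-type C57BL/6 mice taken at P17, in 3 groups of 3, and their RNA was sequenced. Control mice were raised in room air. OIR mice went through oxygen-induced retinopathy, in which pups are kept in high oxygen until the central retinal vessels are lost and are then returned to room air, and their retinas had DMSO as vehicle. OIR+32-134D mice went through the same model and received the HIF inhibitor 32-134D at 70 ng in a single intraocular injection at P12, a dose that the injection text gives as a concentration. The labels name DMSO for the control mice as well, and 1 text on the injection is repeated for all 9 mice. Whether the eyes were cleared of blood before the retina was taken is not given in the sources used here, and no count of red cells is used here. In bulk RNA, fewer red cells and less RNA per red cell cannot be told apart.

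Adult hemoglobin is built from a pair of alpha and a pair of beta chains, each holding a heme group. Red cells lose their nucleus as they mature, and the young forms in the circulation, the reticulocytes, still carry globin messages, which makes these among the most abundant messages in blood. Alas2 is the red cell form of the enzyme that starts heme synthesis, whereas Alas1 serves the other tissues. The alpha and beta genes lie in separate clusters in which embryonic and adult genes are arranged along the chromosome.

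The alpha and beta chains each come from 2 gene copies that are nearly the same. The last coding exon of each copy is shown because it holds the only base in the coding sequence by which the copies differ, written in capitals. The exons were read from the GRCm38 genome with the GENCODE M21 gene models, and beta sequences are given on the minus strand, from which both genes are read.
Hba-a1, chr11:32284263-32284391, plus strand: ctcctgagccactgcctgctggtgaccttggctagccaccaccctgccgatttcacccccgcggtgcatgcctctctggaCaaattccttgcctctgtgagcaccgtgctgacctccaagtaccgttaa
Hba-a2, chr11:32297080-32297208, plus strand: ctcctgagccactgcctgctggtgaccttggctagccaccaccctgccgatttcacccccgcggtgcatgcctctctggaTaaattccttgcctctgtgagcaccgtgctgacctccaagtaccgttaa
Hbb-bs, chr7:103826665-103826793, minus strand: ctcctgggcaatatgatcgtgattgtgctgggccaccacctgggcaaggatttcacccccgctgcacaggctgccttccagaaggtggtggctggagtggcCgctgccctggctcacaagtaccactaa
Hbb-bt, chr7:103812656-103812784, minus strand: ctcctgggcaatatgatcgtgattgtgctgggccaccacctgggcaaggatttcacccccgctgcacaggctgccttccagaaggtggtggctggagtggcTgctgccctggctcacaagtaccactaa

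Counting from 1 at the start codon, the alpha copies differed by C381T over 429 coding bases, with the Hba-a1 base first, and the beta copies by C417T over 444 coding bases, with the Hbb-bs base first. Both differences fall on base 3 of a codon and leave the encoded protein the same. Over whole transcripts, 56.5% of the 100-base windows of Hba-a1 were found unchanged in Hba-a2, and 74.5% of those of Hba-a2 in Hba-a1. For the beta copies these shares were 62.6% of the windows of Hbb-bs and 54.8% of those of Hbb-bt. How reads that match both copies were counted is not given in the sources used here. The split of a chain between its copies is therefore uncertain, and the results are also given with the copies of each chain added.

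The sequence before 1 alpha and 1 beta gene is shown as background, and whether it bears on the counts of these mice was not tested. It was taken from RefSeq on GRCm38.p6, as a stretch just before the RefSeq start that lies outside all UTRs of the GENCODE models. For Hbb-bs those models hold a further transcript that begins upstream, so its stretch lies within the gene span given with the positions of the genes. Capitals mark the run GATAA (the core that GATA factors bind), the run CACCC (bound by Klf1 and its relatives), the CCAAT box, and the TATA box as TATAA.
Hba-a2, chr11:32296297-32296488, plus strand: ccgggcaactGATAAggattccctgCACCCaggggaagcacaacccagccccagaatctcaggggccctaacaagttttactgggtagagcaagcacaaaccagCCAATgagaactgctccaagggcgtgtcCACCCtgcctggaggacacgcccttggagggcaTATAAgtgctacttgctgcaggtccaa
Hbb-bs, chr7:103827929-103828011, minus strand: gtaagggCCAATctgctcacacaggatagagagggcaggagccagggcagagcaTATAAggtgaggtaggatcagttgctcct

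In Hba-a2 the first base of GATAA lay at position -185 from the RefSeq start, that of CCAAT at -91, and that of TATAA at -30. In Hbb-bs CCAAT began at -76 and TATAA at -29, whereas GATAA began at -209 and the run CACCC at -90, outside the stretch shown. On either strand, all 5 genes held GATAA as well as CACCC and the TATAA run, and the 4 globin genes but not Alas2 held CCAAT. These searches took in the 250 bases before the start. Of 32851 mouse promoters searched over the same length, 22.6% held GATAA on either strand. The share was 52.0% for CACCC, and 33.8% held the CCAAT box, 22.8% held the TATAA run, and 10.1% held GATAA together with the run CACCC. Before the alpha genes a run of 247 bases was identical, whereas the longest identical run before the beta genes was 14 bases. A match is a run of letters and not a site shown to be used.

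Hba-a1 (ENSMUSG00000069919) lies at chr11:32283511-32284465 and Hba-a2 (ENSMUSG00000069917) at chr11:32296489-32297298. Hbb-bs (ENSMUSG00000052305) lies at chr7:103826534-103828096 and Hbb-bt (ENSMUSG00000073940) at chr7:103812524-103813996. Alas2 (ENSMUSG00000025270) lies at chrX:150547375-150570638, all on GRCm38. Between 16028731 and 27213184 reads were counted per mouse. Lens crystallins took 15.8% of the counts of OIR+32-134D mouse 2 and at most 0.186% in the other 8 mice. Gnat1, the transducin subunit of rods and 1 of 12 retinal markers examined, had a log2 fold change of -0.22 in OIR against control mice. None of the 12 passed an adjusted p of 0.05 in edgeR in any comparison, and Pax6 was called lower in OIR mice by DESeq2 and voom. Levels below are in CPM, the count of a gene scaled to a fixed library size, over library sizes scaled by TMM unless stated otherwise.

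**Figure D1:**
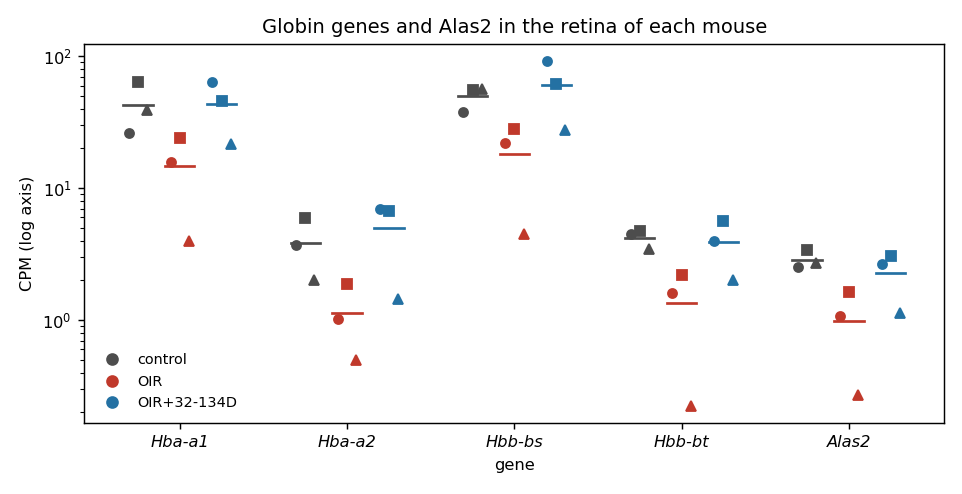
CPM (log axis) of Hba-a1, Hba-a2, Hbb-bs, Hbb-bt, and Alas2 in each retina. Circles, squares, and triangles are the mice of a group in order of mouse number, and lines are the means of 3 mice. With TMM scaling, OIR mice lie below all control mice for each gene, and OIR mouse 6 is the lowest of the 9.

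Hbb-bs, the more abundant of the beta genes, had 37.7, 55.2, and 56.0 CPM in control mice 1, 6, and 7. In OIR mice 3, 5, and 6 it had 22.1, 28.3, and 4.50 CPM, and in OIR+32-134D mice 2, 5, and 10 it had 91.8, 61.3, and 27.8 CPM. All OIR mice were below all control mice, and OIR+32-134D mouse 10 fell within the range of the OIR mice. The mean was 49.6 ± 10.3 CPM in the control group, 18.3 ± 12.3 in the OIR group, and 60.3 ± 32.0 in the OIR+32-134D group (SD, n = 3). The coefficient of variation was 20.8% in control and 67.5% in OIR mice.

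Hba-a1, the more abundant of the alpha genes, had 26.2, 63.7, and 39.2 CPM in the control mice. It had 15.9, 24.1, and 3.96 CPM in the OIR group, against 63.4, 45.4, and 21.5 CPM in the OIR+32-134D group. The highest OIR mouse and the lowest control mouse were close, at 24.1 and 26.2 CPM, so the groups were separated by a narrow gap. The means were 43.0 ± 19.0 in the control group, 14.7 ± 10.1 in the OIR group, and 43.5 ± 21.05 in the OIR+32-134D group.

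Hba-a2, the second alpha copy, was counted far less often. Its CPM was 3.70, 5.90, and 2.0 in the control group, 1.02, 1.86, and 0.495 in the OIR group, and 6.98, 6.68, and 1.44 in the OIR+32-134D group. Only 11 reads stood behind the lowest value, that of OIR mouse 6, and 19 behind that of OIR mouse 3. Here too the OIR mice were below the control mice, by a margin of 1.86 against 2.0 CPM. Over total counts instead of TMM they overlapped, with 1.96 CPM in OIR mouse 5 and 1.84 in control mouse 7. OIR+32-134D mouse 10 was below OIR mouse 5.

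Hbb-bt, the second beta copy, had 4.47, 4.71, and 3.48 CPM in control mice. It had 1.60, 2.19, and 0.225 CPM in OIR mice, the last from 5 reads, and 4.0, 5.64, and 2.0 CPM in OIR+32-134D mice. Its control mice lay close together, with a coefficient of variation of 15.4%, against 75.3% in OIR mice.

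Alas2, the heme synthesis enzyme of the red cell line, had 2.51, 3.42, and 2.71 CPM in control mice. It had 1.07, 1.63, and 0.270 CPM in OIR mice, the last from 6 reads, and 2.66, 3.07, and 1.13 CPM in OIR+32-134D mice. The Alas2 gene lies within the span of Apex2 (chrX:150519519-150589868), a DNA repair gene on the other strand. Whether counting used strand is not given in the sources used here, so reads of the pair cannot be told apart where exons overlap. Apex2 had 205 to 415 counts per mouse, and its log2 fold change was 0.19 in OIR against control mice (edgeR, adjusted p = 0.453) and -0.17 in OIR+32-134D against OIR mice (edgeR, adjusted p = 0.9998).

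Per kilobase of the deposited gene length, the order of the 5 genes was led by Hbb-bs and Hba-a1, and Alas2 was the lowest in every mouse. Hbb-bs ranged from 5.86 to 119.5 CPM per kb and was above Hba-a1 in 8 of 9 mice, by a median ratio of 1.43. The exception was control mouse 6, in which the ratio was 0.916. Hba-a1 was above Hba-a2 in 9 of 9 mice, by a median ratio of 8.88, and Hbb-bs was above Hbb-bt in 9 of 9 mice, by a median ratio of 12.6. Hba-a2 and Hbb-bt had no settled order, since Hba-a2 was the higher in 4 of 9 mice.

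Added together, the 4 globin genes made up 0.00758%, 0.0130%, and 0.00926% of all counts in control mice 1, 6, and 7. They made up 0.00409%, 0.00594%, and 0.000968% in OIR mice 3, 5, and 6, as against 0.0141%, 0.0121%, and 0.00552% in OIR+32-134D mice 2, 5, and 10. The 95% Wilson interval of OIR mouse 6, 0.000844% to 0.00111%, did not reach that of any other mouse, and such intervals cover counting error only. Over total counts, the sum was 99.6 ± 28.0 CPM in the control group, 36.7 ± 25.1 in the OIR group, and 105.9 ± 45.1 in the OIR+32-134D group (SD, n = 3). The log2 ratio of the group means was -1.44 for OIR against control, 1.53 for OIR+32-134D against OIR, and 0.09 for OIR+32-134D against control mice. Without OIR mouse 6 the first of these was -0.99 and the second 1.08.

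The first comparison addresses how the retina of the model differs from that raised in room air. All 5 genes were lower in OIR than in control mice, and none passed an adjusted p of 0.05 in edgeR's quasi-likelihood test, which 0.941% of the 17540 genes tested did. Log2 fold changes were -1.44 ± 0.60 (SE) for Hbb-bs, -1.55 ± 0.62 for Hba-a1, -1.78 ± 0.69 for Hba-a2, -1.66 ± 0.65 for Hbb-bt, and -1.54 ± 0.59 for Alas2. As fold values these were 2.71 to 3.43 times lower, and adjusted p ran from 0.160 for Alas2 to 0.188 for Hbb-bs. At an unadjusted p below 0.05, 5 of 5 genes were lower, against 12.7% of all genes tested. In 5 of 5 genes every OIR mouse was below every control mouse, against 17.2% of all genes tested. This was with TMM scaling, and for Hba-a2 the groups overlapped over total counts. With the copies of each chain added before the fit, the log2 fold change was -1.57 ± 0.61 for the alpha chain and -1.46 ± 0.60 for the beta chain. The median log2 fold change was -1.55 over the 5 genes and 0.03 over all genes.

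The 5 genes moved together between mice, so these counts are not 5 separate results. DESeq2 called 1 of 5 lower on all 9 mice, Hba-a2 (DESeq2, adjusted p = 0.0490), and 3 of 5 when fitted to the 2 groups, namely Hba-a2, Hbb-bt, and Alas2 (adjusted p = 0.00981, 0.0243, and 0.0447). It called 3.73% of 30241 genes lower in the first of these fits and 5.69% of 28876 genes in the second. DESeq2 shares, here and below, are over all genes given a p-value, without the count filter of edgeR and voom. They are therefore not over the same genes as shares of the 17540. The count at an unadjusted p was 0 without control mouse 6, 0 without OIR mouse 3, 1 without OIR mouse 6, 3 without control mouse 7, and 3 in a robust edgeR fit, which was chosen after seeing the data. In these 5 fits, in the same order, 10.1%, 11%, 8.2%, 8.02%, and 12.5% of all genes tested were lower at an unadjusted p below 0.05.

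**Figure D2:**
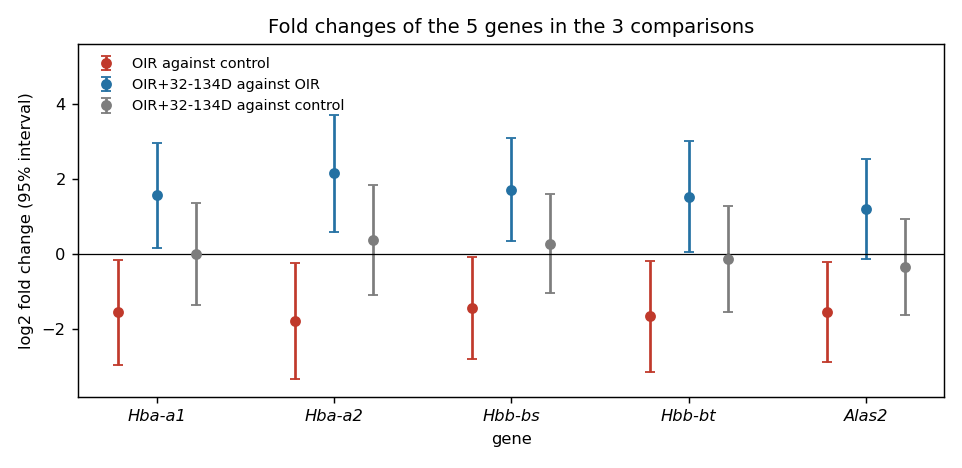
Log2 fold changes from edgeR with 95% intervals for the 5 genes, in OIR against control (red), OIR+32-134D against OIR (blue), and OIR+32-134D against control (grey). Red points lie between -1.78 and -1.44, blue points between 1.20 and 2.15, and grey points on both sides of 0.

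The second comparison addresses what the HIF inhibitor does in the OIR retina. All 5 genes were higher in OIR+32-134D mice than under vehicle, and none passed an adjusted p of 0.05 in edgeR, which 0% of the genes tested did. The log2 fold change was 1.72 ± 0.61 (SE) for Hbb-bs, 1.57 ± 0.62 for Hba-a1, 2.15 ± 0.69 for Hba-a2, 1.53 ± 0.65 for Hbb-bt, and 1.20 ± 0.59 for Alas2. Adjusted p was 0.990 for Hbb-bs and Hba-a2 and 0.9998 for the other 3. At an unadjusted p below 0.05, 4 of 5 were higher, all but Alas2, against 2.39% of all genes tested. In 0 of 5 genes were all OIR+32-134D mice above all OIR mice, against 3.74% of all genes tested, since OIR+32-134D mouse 10 was below OIR mouse 5 in each gene.

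With copies added, the log2 fold change was 1.62 ± 0.61 for the alpha chain and 1.71 ± 0.61 for the beta chain. No alternative called any of the 5 genes in this comparison, in which DESeq2 on all 9 mice called 0.103% of all genes and voom 0.0057%. DESeq2 on all 9 mice had 5 of 5 higher at an unadjusted p below 0.05, against 1.67% of all genes. In edgeR the count was 1 without OIR+32-134D mouse 2, the mouse with the lens transcripts, against 8.35% of all genes. It was 2 without OIR mouse 3, OIR mouse 6, or OIR+32-134D mouse 5, against 2.7%, 1.31%, and 2.41% of all genes. Both comparisons use the same OIR mice, so their opposite directions are not separate evidence.

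Between OIR+32-134D and control mice, none of the 5 genes passed an adjusted p of 0.05 in edgeR, as 0.0228% of all genes tested did, and 0 of 5 had an unadjusted p below 0.05, against 18.6% of all genes tested. The log2 fold change and its 95% interval was 0.28 (-1.05 to 1.61) for Hbb-bs, 0.01 (-1.34 to 1.37) for Hba-a1, and 0.37 (-1.09 to 1.83) for Hba-a2. It was -0.13 (-1.54 to 1.28) for Hbb-bt and -0.34 (-1.61 to 0.94) for Alas2. The intervals take in changes of more than 1 log2 unit on at least 1 side, and the values do not show that the groups were alike. DESeq2 and voom also called none of the 5 here. Of all genes, DESeq2 on all 9 mice called 2.23% and voom 5.28%.

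The share of each chain that was counted on its minor copy varied between mice of a group. Of alpha counts, Hba-a2 held 12.4%, 8.47%, and 4.85% in control mice 1, 6, and 7. It held 6.01%, 7.17%, and 11.1% in the OIR group and 9.91%, 12.8%, and 6.28% in the OIR+32-134D group. The control mice already covered nearly this whole range, and the 95% Wilson intervals of control mice 1 and 7, 10.3% to 14.8% and 3.44% to 6.80%, did not overlap.

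Of beta counts, Hbb-bt held 10.6%, 7.86%, and 5.85% in the control group, 6.77%, 7.19%, and 4.76% in the OIR group, and 4.17%, 8.43%, and 6.74% in the OIR+32-134D group. The lowest share, in OIR+32-134D mouse 2, had an interval of 3.27% to 5.30%, below that of control mouse 1, at 8.98% to 12.5%. The group means of the Hbb-bt share were 8.10% ± 2.38 in the control group, 6.24% ± 1.30 in the OIR group, and 6.45% ± 2.14 in the OIR+32-134D group, and differed by less than the spread within control mice.

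The balance of the chains was steadier than their amount. The ratio of alpha to beta counts was 0.709, 1.16, and 0.692 in the control group, 0.713, 0.853, and 0.943 in the OIR group, and 0.735, 0.779, and 0.770 in the OIR+32-134D group. It thus spanned a range of 1.68 times over 9 mice, whereas the summed share of globin counts spanned 14.6 times. Control mouse 6 stood out, as alpha made up 53.7% of its globin counts (interval 51.8% to 55.7%) and 40.9% to 48.5% in the other 8 mice. Alas2 made up 1.58% to 3.37% of the counts of the 5 genes, with the lowest share in OIR+32-134D mouse 2 and the highest in control mouse 1.

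**Figure D3:**
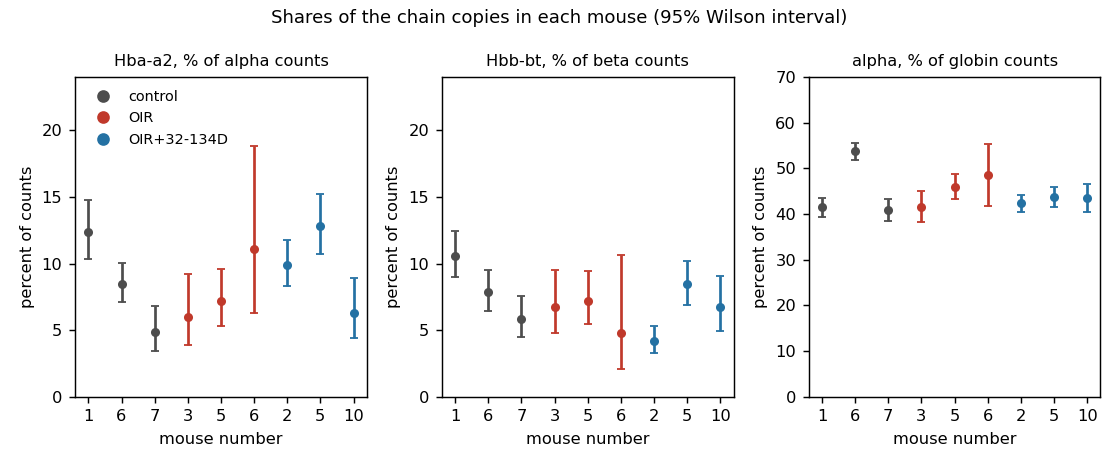
Share of alpha counts on Hba-a2, share of beta counts on Hbb-bt, and share of all globin counts on the alpha genes, in percent, for each mouse by number, with 95% Wilson intervals of counting error. Mice of 1 group differ by more than their intervals in the first 2 panels, and control mouse 6 has the highest alpha share, 53.7%.

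Across the 9 mice, log2 CPM of Hbb-bs was correlated with that of each other member, among 13 relations tested by two-sided exact permutation with Benjamini-Hochberg adjustment. Pearson's r was 0.98 for Hba-a1 (exact p = 6.06e-05, adjusted p = 0.000788), with Spearman's rho of 0.90 (exact p = 0.00203, adjusted p = 0.0132). For Alas2 r was 0.95 (exact p = 0.000562, adjusted p = 0.00289) and rho 0.85 (exact p = 0.00607, adjusted p = 0.0263). For Hbb-bt r was 0.95 (exact p = 0.00119, adjusted p = 0.00388) and rho 0.82 (exact p = 0.0108, adjusted p = 0.0350). For Hba-a2 r was 0.88 (exact p = 0.000667, adjusted p = 0.00289) and rho 0.95 (exact p = 0.000353, adjusted p = 0.00459). Hbb-bt is nearly identical to Hbb-bs, and how reads matching both were counted is not given, so their relation may not be one of separate counts. The points also share the library and its scaling.

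The mice farthest from the median Hbb-bs were OIR mouse 6 and OIR+32-134D mouse 2. Without this pair r was 0.93 for Hba-a1, 0.94 for Alas2, 0.91 for Hbb-bt, and 0.82 for Hba-a2, with exact adjusted p of 0.0271, 0.0271, 0.0555, and 0.102. Using deviations from group means, r was 0.96 for Hba-a1, 0.95 for Alas2, 0.91 for Hbb-bt, and 0.75 for Hba-a2, and no exact adjusted p passed (0.120, 0.181, 0.261, and 0.241). This test reorders mice only within groups, which allows few orders. At the smallest p it can give, a lone relation would not pass after adjustment, whatever its r. The order of the OIR mice was the same in all 5 genes, with mouse 5 above mouse 3 and mouse 3 above mouse 6.

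**Figure D4:**
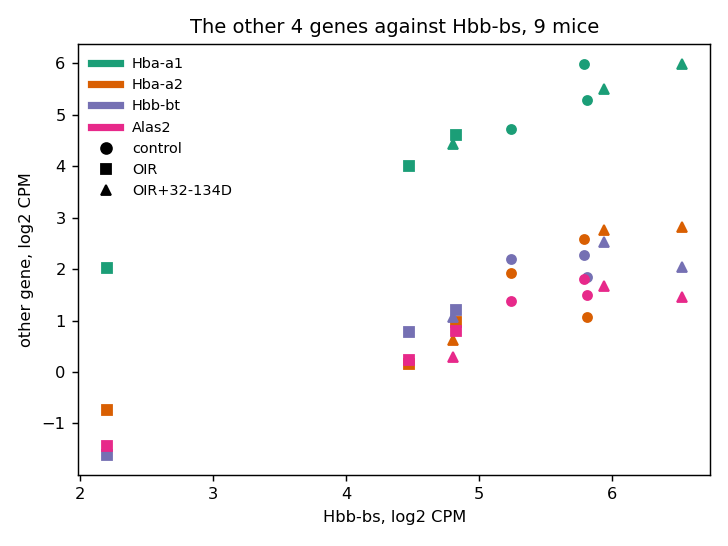
Log2 CPM of Hba-a1, Hba-a2, Hbb-bt, and Alas2 (colors) against log2 CPM of Hbb-bs in the 9 mice, with circles for control, squares for OIR, and triangles for OIR+32-134D. The values of each gene are higher where Hbb-bs is higher, with r from 0.88 for Hba-a2 to 0.98 for Hba-a1, and OIR mouse 6 stands apart at the lower left.

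Outside the 5 genes, the 10 whose log2 CPM followed Hbb-bs most closely over the 9 mice were Tcp11, Spns2, A930017M01Rik, Atad3a, F630040K05Rik, Chrna4, Matk, A930006I01Rik, Kctd3, and Aqp1. Their r ran from 0.96 for Tcp11 to 0.87 for Aqp1, and 5 of the 15442 genes ranked had r above 0.9. Spns2, which exports sphingosine-1-phosphate from cells, had r of 0.96 and a log2 fold change of -0.96 in OIR against control mice (edgeR, adjusted p = 0.0954). Aqp1, a water channel, had a log2 fold change of -0.54 (edgeR, adjusted p = 0.238). Being the extremes of so many genes over 9 mice, these values are given without a test.

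Some messages of the red cell line were at or near 0, and others were well counted. Of the 7 other globin genes, 4 had no count in any mouse, Hbb-bh1, Hbb-bh2, Hbb-bh0, and the embryonic alpha gene Hba-x, and the other 3 had at most 5 counts in a mouse. A count of 0 allows up to 0.110 to 0.187 CPM, which is 3 counts of the total of a mouse. Of the genes that define the red cell membrane, the anion exchanger Slc4a1 had 0 to 8 counts per mouse and Epb42 0 to 4, and Rhag, Kel, and Cldn13 had none. The erythroid regulator Gata1 had at most 3 counts, Gfi1b and Hemgn had none, and Klf1 had 0 to 28. In contrast, Ldb1 had 1477 to 3334 counts, Zfpm1 632 to 885, and Lmo2 89 to 438. Of 12 such regulators with counts listed, 6 were tested, led by Ldb1 and Zfpm1 with log2 fold changes of -0.23 and 0.13 in OIR against control mice, and none passed in edgeR. The relation of these regulators to Hbb-bs had r of 0.18 (exact adjusted p = 0.719).

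Of 16 genes of the red cell membrane list, 9 were high enough to test, and none passed an adjusted p of 0.05 in edgeR in any comparison. Epb41 and Sptb, the members with the highest CPM per kb, had log2 fold changes in OIR against control mice of 0.44 (edgeR, adjusted p = 0.115) and -0.63 (edgeR, adjusted p = 0.132). Sptb had 1803 to 3342 counts per mouse. Summed CPM of this list was 1046 to 1381 in the control group, 1170 to 1462 in the OIR group, and 1293 to 1385 in the OIR+32-134D group, so the groups overlapped. Its summed level was not shown to follow Hbb-bs (r = 0.31, exact adjusted p = 0.570). Epb41 alone made up 63.9% to 86.1% of this sum. Without it the sum was 332.9 to 469.6 CPM in the control group, 162.7 to 243.0 in the OIR group, and 284.5 to 323.9 in the OIR+32-134D group, so that all OIR mice were below all others. Of all single genes tested, 17.2% had all OIR mice below all control mice, and 3.74% had them below all OIR+32-134D mice. Across the 9 mice r with Hbb-bs was -0.18 for Epb41, 0.77 for Sptb, 0.61 for Add2, and -0.64 for Gypc. These values were looked up after the others were seen and are given without a test.

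Heme synthesis was measured by 13 genes other than Alas2, of which none passed an adjusted p of 0.05 in edgeR in any comparison. Urod, an enzyme midway in the pathway, and Tfrc, the transferrin receptor that brings in iron, had the highest CPM per kb. The log2 fold change of Urod was -0.11 in OIR against control and -0.19 in OIR+32-134D against OIR mice. For Tfrc these were -0.50 (edgeR, adjusted p = 0.165) and 0.61 (edgeR, adjusted p = 0.984). Alas1, the form of other tissues, had 450 to 1497 counts per mouse and a log2 fold change of -0.35 in OIR against control mice (edgeR, adjusted p = 0.140). DESeq2 on all 9 mice and voom called Alas1 in OIR+32-134D against control mice, where it was -0.49 (edgeR, adjusted p = 0.133). Over the 13 genes the median log2 fold change in OIR against control mice was 0.09, against -1.54 for Alas2. The range was -0.50 for Tfrc to 1.34 for Slc25a37 (edgeR, adjusted p = 0.170), which voom called. Of 14 genes for enzymes and proteins of young red cells, 13 were tested and none passed, led by Car2 and Prdx2 at -0.17 and -0.08.

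Markers of the other blood cells were low and were not lowest in the OIR group. The summed CPM of 13 neutrophil genes was 1.87 to 7.47 in the control group, 8.02 to 17.5 in the OIR group, and 1.75 to 4.38 in the OIR+32-134D group. All OIR mice were above all others, but the share of all genes with this order was not counted. The sums rest on few reads, with 15, 0, and 0 for S100a8 in control mice 1, 6, and 7. Of the 13 genes 4 were tested and none passed in edgeR, among them S100a9 and S100a8, subunits of calprotectin. Their log2 fold changes were 2.50 and 3.72 in OIR against control mice. In that comparison S100a8 was called by DESeq2 and voom and S100a9 by voom, and DESeq2 called Csf3r, a cytokine receptor of neutrophils, in OIR+32-134D against OIR mice. Mpo had no counts and Ly6g at most 1. The relation of the list to Hbb-bs had r of -0.65 (exact p = 0.0426, adjusted p = 0.111).

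Of 11 platelet genes 3 were tested, Pf4, Gp1ba, and Itga2b, and none passed. The summed CPM of the list was 6.00 to 14.9 in the control group, 8.61 to 27.4 in the OIR group, and 8.69 to 36.2 in the OIR+32-134D group, with Gp1bb and Gp6 at 0 in all mice. Of 14 lymphocyte genes 3 were tested, Cd79b, Ighm, and Cd8a, and none passed, with summed CPM of 4.19 to 8.17, 6.20 to 7.97, and 5.71 to 7.04 in the 3 groups and Cd3d at 0 in all mice.

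The vessel wall was read from 13 endothelial genes, all of which were tested. In OIR against control mice 1 passed, Kdr, a VEGF receptor, which rose by 1.10 on the log2 scale (edgeR, adjusted p = 0.0407). None passed in edgeR in the other comparisons. Without 1 mouse, that is any control or OIR mouse or OIR+32-134D mouse 5, the edgeR adjusted p of Kdr was 0.0760 to 0.163. In these fits no gene of all tested passed, and the log2 fold change of Kdr was 0.97 to 1.20. DESeq2 on all 9 mice and voom also called Kdr (adjusted p = 7.74e-06 and 0.0103), and DESeq2 called Flt1. Cldn5, a tight junction gene with the highest CPM per kb of the list, had a log2 fold change of -0.17. The summed CPM of the list was 364.3 to 400.0 in the control group, 507.3 to 652.1 in the OIR group, and 432.2 to 619.3 in the OIR+32-134D group. Kdr made up 23.1% to 55.3% of this sum. Without it the sum was 259.1 to 281.3, 226.7 to 427.9, and 225.3 to 476.3 CPM in the 3 groups, which overlapped. Over the 13 genes, 5 were lower and 8 higher in OIR than in control mice, and the median was 0.05 on the log2 scale. In OIR+32-134D against OIR mice 10 were higher, with a median of 0.56, against 51.3% of all genes tested. In OIR+32-134D against control mice 13 of 13 were higher, with a median of 0.42, against 51.4% of all genes tested. There DESeq2 on all 9 mice called Kdr and Plvap and voom called Pecam1, against 2.23% and 5.28% of all genes. The relation of the list to Hbb-bs had r of -0.32 (exact adjusted p = 0.583).

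Tissue carried over at dissection was read from 3 further lists. Pigment epithelium and choroid genes, 12 of 12 tested, had summed CPM of 296.1 to 464.2 in the control group, 317.0 to 620.2 in the OIR group, and 374.2 to 654.6 in the OIR+32-134D group, and none passed. Muscle genes were low but counted, with 3 of 10 tested, summed CPM of 8.12 to 12.2 over all mice, and 44 to 145 counts of Acta1 per mouse. Lens genes, 16 of 16 tested, had summed CPM up to 168583 in OIR+32-134D mouse 2, which also had the highest Hbb-bs, and none passed. The highest members per kilobase were Ttr and Pmel, Mylpf and Acta1, and Cryaa and Crygb. In OIR against control mice their log2 fold changes were -0.22 and 0.74, 0.02 and -0.84, and 1.69 and 1.97. The relations of these lists to Hbb-bs had r of 0.14, 0.47, and 0.40, with exact adjusted p of 0.719, 0.366, and 0.395. The part of dissection, vessels, and blood cells other than red cells in the globin values was not tested.

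These counts of genes past the threshold depend on the tool. Of 117 genes of all lists other than the 5 that edgeR tested, 21 had an unadjusted p below 0.05 in OIR against control mice, 34 in OIR+32-134D against control, and 25 in OIR+32-134D against OIR, and edgeR called 1, 0, and 0. Of all genes tested, 23.8%, 18.6%, and 4.69% had such an unadjusted p. Lens genes, high in OIR+32-134D mouse 2, were 0, 16, and 15 of these, and without them the counts were 21, 18, and 10 of 101. DESeq2 on all 9 mice called 12, 4, and 1 of 161 list genes it tested, against 5.87%, 2.23%, and 0.103% of all genes given a p-value, a larger set than the filtered one. Of the 117 genes voom called 13, 5, and 0, against 13.1%, 5.28%, and 0.0057% of all genes. In OIR against control mice both of these called Ank1, Dmtn, Add2, Epb41, and Gypc of the red cell membrane list. The log2 fold changes were -2.08 for Ank1, -1.70 for Dmtn, and -0.99 for Add2, cytoskeletal genes that neurons also express, and 2.02 for Gypc. These 5 differed in direction, and Slc4a1, Epb42, Rhag, Kel, and Cldn13 were at or near 0.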

How the data were processed

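Retinal RNA of 9 mice, each taken as 1 replicate, was compared between control, OIR, and OIR+32-134D groups assigned from the labels. Whether mice of a group came from separate litters is not stated, so p-values measure only the spread between these samples. The table the authors deposited holds unnormalized whole-number counts for each gene and a gene length. The submitters' processing notes name CASAVA and HISAT, without versions. The counter, annotation, strand setting, and handling of reads with several matches are not given in the sources used here. Of 54409 gene identifiers found in GENCODE M21, 53462 (98.3%) had the same position, so coordinates are on GRCm38. No pair of mice in a group was a copy by a chi-square of counts.

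Counts were fitted in edgeR 4.0.16 (R 4.3.3) with TMM scaling, the default filter by group (17540 genes), and the quasi-likelihood test on all 9 mice, with Benjamini-Hochberg adjustment over all genes. Log2 CPM had a prior count of 2. Shares have Wilson intervals. Alternatives were total counts alone, crystallins left out of library sizes, DESeq2 1.42.0, limma 3.58.1 (voom with quality weights), edgeR on 2 groups, other filters, chain copies added, and leaving out each mouse. The fits were tested on simulated data in which changes were set only in well-counted genes, so the test does not cover Hba-a2, Hbb-bt, or Alas2. Genes named outside the members were, in each list, the 2 of highest mean CPM per kb, genes past the threshold, and those at or near 0, which were chosen after their values were seen, as were Alas1, Lmo2, list genes called by tools other than edgeR, and the genes tested in the blood cell lists. The 10 genes most like Hbb-bs were ranked by Pearson's r among genes with mean log2 CPM of at least 0. The members and lists were chosen with earlier results of these data known. Results for some genes of the lists are not reported here by name.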

Additional observations from a re-analysis of the deposited data

How the results depend on the processing

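In OIR against control mice, the count of the 5 genes past the threshold was 0 with edgeR and was 1 with DESeq2 on all 9 mice and 3 with DESeq2 on the 2 groups, which called 3.73% and 5.69% of all genes lower; it was 0 under the other alternatives. In the other comparisons it was 0 under every alternative run. For OIR against control mice, no gene of all tested passed without any 1 of the control or OIR mice or OIR+32-134D mouse 5. For OIR+32-134D against OIR mice, no gene passed in any fit that left out a mouse. A count of 0 in those fits holds for every gene and is not particular to the 5. In OIR against control mice voom called 13.1% of all genes tested. The direction of all 5 genes was lower in OIR than in control, and higher in OIR+32-134D mice than under vehicle, under every alternative run. In OIR+32-134D against control mice directions turned: Hba-a1 was -0.0577 with total counts alone and -0.45 with voom, where Hba-a2 was -0.11 and Hbb-bs -0.0559. Leaving out a mouse there gave ranges of -0.35 to 0.41 for Hba-a1, -0.15 to 0.63 for Hbb-bs, and -0.50 to 0.19 for Hbb-bt. Leaving out a mouse, the log2 ratio of the summed globins ranged from -1.98 to -0.99 for OIR against control, from 1.08 to 2.07 for OIR+32-134D against OIR, and from -0.18 to 0.40 for OIR+32-134D against control mice, where it turned sign without control mouse 1 or OIR+32-134D mouse 2 or 5. With deviations from group means, no relation of Hbb-bs to the members passed (r = 0.96, 0.75, 0.91, and 0.95 for Hba-a1, Hba-a2, Hbb-bt, and Alas2). That test allows few orders, and a lone relation could not pass in it. Without the 2 farthest mice, the relations to Hba-a2 (0.82) and Hbb-bt (0.91) did not pass. Without these mice r turned to -0.43 for pigment epithelium genes, -0.14 for lens genes, and -0.0480 for red cell membrane genes, whereas it rose from 0.47 to 0.84 for muscle genes (exact p = 0.0137, adjusted p = 0.0555). The cause of these shifts was not tested. A filter of 10 counts in every mouse removed Hbb-bt and Alas2, which had 5 and 6 counts in OIR mouse 6, so their values in that mouse rest on few reads. In OIR against control mice, the SE of the log2 fold change was smallest for Alas2 (0.59) and largest for Hba-a2 (0.69). No paired analysis was run because the labels give no pairing of mice between groups.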

Other observations

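Genes that clear free hemoglobin and heme were measured in the same retinas. Of 11 such genes 10 were tested, and none passed an adjusted p of 0.05 in edgeR in any comparison. Fth1 and Ftl1, the ferritin chains that store iron, had the highest CPM per kb, with log2 fold changes of 0.25 and 0.68 in OIR against control mice. Hmox1, the inducible heme oxygenase that opens the heme ring, had 656, 228, and 70 counts in control mice 1, 6, and 7. It had 509, 2793, and 10464 counts in OIR mice 3, 5, and 6. The counts were 4364, 210, and 186 in OIR+32-134D mice 2, 5, and 10. Its log2 fold change in OIR against control mice was 4.0 (edgeR, adjusted p = 0.149). OIR mouse 6, with the most Hmox1, had the fewest globin counts of the 9 mice, whereas OIR+32-134D mouse 2, with the next most, had the highest Hbb-bs. Slc40a1, the iron exporter ferroportin, had 98 to 256 counts in the control group, 311 to 777 in the OIR group, and 122 to 301 in the OIR+32-134D group, with a log2 fold change of 1.54 in OIR against control mice (edgeR, adjusted p = 0.0737). DESeq2 on all 9 mice called Hmox1, Slc40a1, and Hmox2 in that comparison, and voom called Slc40a1 and Hmox2. Hmox2 went the other way, with a log2 fold change of -0.38 (edgeR, adjusted p = 0.0721). Hmox1, Slc40a1, and Hmox2 were named after their values were seen.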
